A study of Mus musculus with 6 samples.

Results

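The genes described here varied among the 3 TKO-2i libraries and were steady among the 3 TKO-serum libraries of one set of mouse embryonic stem cells (mESCs). They were chosen by the spread of their own values. Levels are in CPM, the estimated counts of a gene per 1000000 estimated counts of its library, and protein-coding genes with a mean of at least 5 CPM over the 6 libraries were considered. A gene was taken when its highest CPM was at least 1.8 times its lowest among the TKO-2i libraries and at most 1.3 times its lowest among the TKO-serum libraries. The rule took 35 of 10433 such genes. It does not say how to treat a library at 0 counts, and 5 of the 35 with such a TKO-2i library were taken to meet it, while 30 met it without them. Since the spread within each condition chose the members, it is given as a description and was not tested.

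TKO mESCs are Dnmt1-/-, Dnmt3a-/- and Dnmt3b-/- and so carry no functional copy of the enzymes that write and copy DNA methylation. They derive from male J1 mESCs and were grown without feeder cells on gelatin. TKO-serum cells were kept in 15% fetal calf serum with LIF at 500 U/ml. TKO-2i cells were kept in N2B27 medium with LIF (1000 U/ml) and 2 inhibitors, 1 µM PD0325901 against MEK and 3 µM CHIR99021 against GSK3. Poly(A)-selected, strand-specific RNA-seq was made from 3 libraries of each condition. The labels call them biological replicates without saying how cultures were kept apart, so that p-values measure the spread between these libraries. Wild-type cells were not analysed here, and both conditions carry the 3 knockouts.

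In 2i medium, blocking MEK lowers ERK signalling and blocking GSK3 stabilises β-catenin, which turns on Wnt targets such as T. Serum cultures, in contrast, are mixed, and hold rare cells in a 2-cell-like state that express Zscan4 genes, which are otherwise used in the early embryo. Replicates of a bulk culture can differ in such rare cells or in how RNA and libraries were handled, and very long or AT-rich transcripts are known to be sensitive to the latter. In bulk RNA, fewer cells of a kind and less RNA per cell cannot be told apart.

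Libraries held 46228700, 44180642 and 43896549 estimated counts in TKO-2i replicates 1, 2 and 3, and 38274042, 51932739 and 44827609 in TKO-serum replicates 1, 2 and 3. A gene with 3 counts therefore has between 0.0578 and 0.0784 CPM, a floor that covers counting error only. Levels are listed below for replicates 1, 2 and 3 in that order, with 2i and serum standing for the TKO-2i and TKO-serum libraries. Transcripts of the targeted genes were present in all 6 libraries. Dnmt1, the maintenance methyltransferase, had 145, 153 and 151 CPM in 2i against 130.2, 133 and 132 CPM in serum. Dnmt3a, a de novo methyltransferase, had 6.92, 7.42 and 7.14 CPM in 2i against 30.4, 30.1 and 31.5 CPM in serum. Dnmt3b, the other de novo enzyme, had 18.4, 20.3 and 20.04 CPM in 2i against 43.5, 43.3 and 45.1 CPM in serum. Sums over whole genes do not show the deleted parts, so these levels do not check the genotype.

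The cells carried the markers of mESCs in every library. All 10 ES cell identity genes were above the 5 CPM floor, and together they had 5524, 4927 and 5147 CPM in 2i against 5992, 5634 and 5762 CPM in serum. Pou5f1, the core pluripotency factor, was the most abundant, with 1267, 1035 and 1206 CPM in 2i against 1437, 1322 and 1386 CPM in serum. Their median ratio of highest to lowest CPM was 1.097 in TKO-2i and 1.05 in TKO-serum, against 1.13 and 1.09 over the 10433 genes.

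TKO-2i replicate 2 was more often at an end of its condition than the other TKO-2i libraries. Among the 9788 protein-coding genes with a mean of at least 5 CPM in each condition, it was the highest TKO-2i library for 45.9% and the lowest for 40.7%. Replicate 1 was highest for 33.9% and lowest for 36.1%, and replicate 3 highest for 20.2% and lowest for 23.2%. In TKO-serum, replicate 1 was highest for 29.1% and lowest for 39.99% of these genes, replicate 2 highest for 40.2% and lowest for 38.8%, and replicate 3 highest for 30.7% and lowest for 21.2%. The spread itself was larger in 2i. Over the 10433 genes the median ratio of highest to lowest CPM was 1.13 in TKO-2i and 1.09 in TKO-serum, and 76 genes reached 1.8 in TKO-2i against 8 in TKO-serum, with 3 genes in common. The same rule with the conditions exchanged took 2 genes, Gm14288 and Gm45234. Gm14288 had 7.31, 2.43 and 0.133 CPM in TKO-serum, and Gm45234 had 1.32, 2.85 and 0.657 CPM. At least 96.8% of the 31-base words in the transcripts of both genes also occur in transcripts of other genes, so that the division of reads between these genes is an estimate.

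The 35 members fell into 3 classes by level. A mean of at least 5 CPM was reached in both conditions by 15 members, in TKO-serum alone by 18 and in TKO-2i alone by 2. The 18 members with less than 5 CPM in TKO-2i met the floor only through serum, so a difference between the conditions was built into their choice. For 5 of them the lowest TKO-2i library had 0 counts and the ratio had no upper end. Counting intervals of the TKO-2i ratio, 95% exact binomial intervals on the counts of the highest and lowest libraries, describe counting error in values that the rule used and are no test. For the 5 members with a library at 0 counts the interval included 1.

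**Figure D1:**
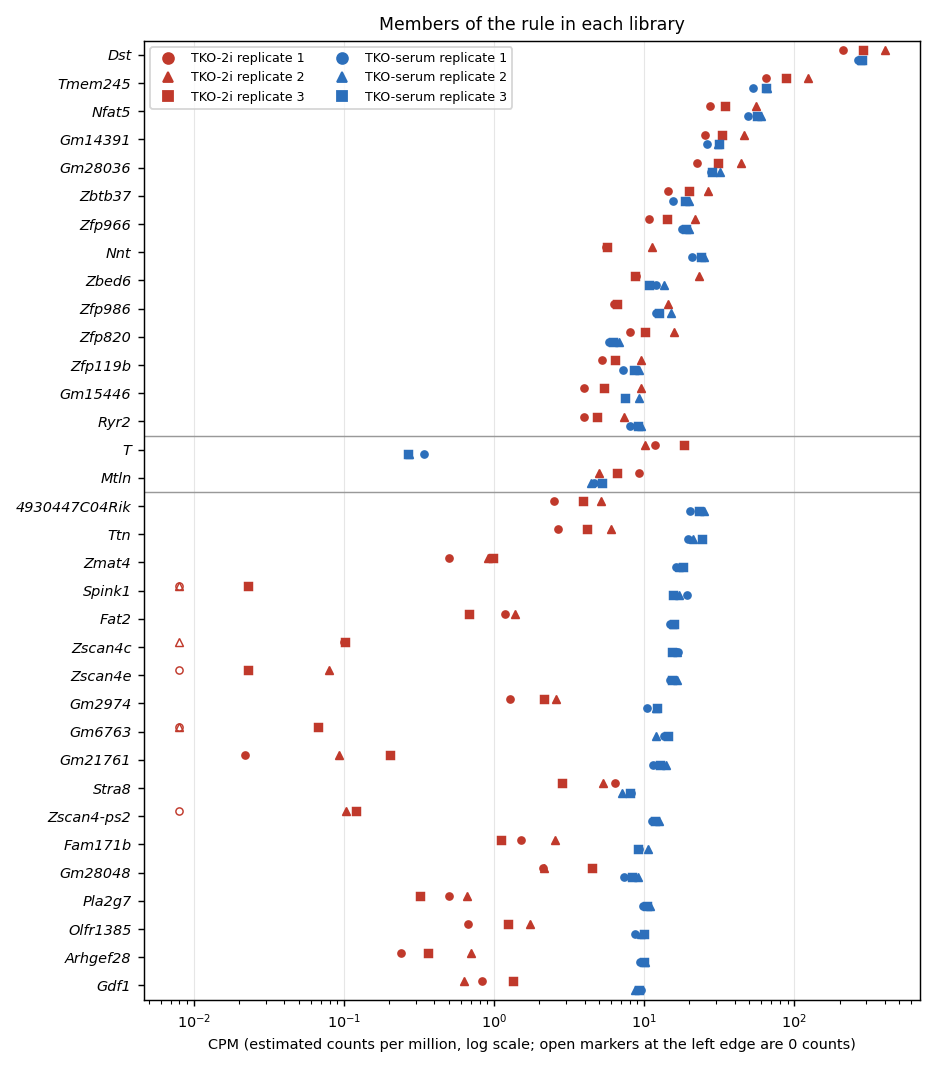
CPM of 34 members in each library, on a log axis, with TKO-2i in red and TKO-serum in blue a marker shape for each replicate and open markers for 0 counts. The upper block holds 14 members with at least 5 CPM in both conditions, the middle block the 2 with at least 5 CPM in TKO-2i alone and the lower block the 18 with at least 5 CPM in TKO-serum alone; the red triangles of TKO-2i replicate 2 are the highest red markers for every gene of the upper block.

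Among the 15 members expressed in both conditions, TKO-2i replicate 2 was the highest library in all 15, and TKO-2i replicate 1 the lowest in 14. In serum, where the rule held the ratio to 1.3 or less, replicate 2 was highest in 13 and replicate 1 lowest in 14. The median CPM of TKO-2i replicate 2 was 1.72 times the mean of replicates 1 and 3 for these members, against 1.01 over the 9788 genes. In TKO-serum the corresponding values were 1.14 and 0.999, and the difference in size between the conditions restates the rule. Without TKO-2i replicate 2, none of the 15 met the rule, since 9 members were left and all belonged to the 18 low in 2i.

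Dst was the most abundant member. Dst (ENSMUSG00000026131; chromosome 1 of GRCm38, 33908225 to 34308661, plus strand) encodes dystonin, a plakin that links cytoskeletal filaments to each other. Dst had 212, 402 and 285 CPM in 2i against 264, 277 and 281 CPM in serum. The TKO-2i libraries thus lay on both sides of the serum libraries, and the mean ± SD was 299.6 ± 96.0 CPM for TKO-2i against 274 ± 8.54 CPM for TKO-serum (n = 3 each). Its transcripts averaged 16801 bases, weighted by reads, with a GC content of 50.4%. Tmem245 (ENSMUSG00000055296; chromosome 4, 56866923 to 56947437, minus strand), a multipass membrane protein, had 64.6, 124 and 87.9 CPM in 2i against 53.4, 65.3 and 64.4 CPM in serum, on transcripts of 15471 bases. Only its TKO-2i replicate 1 overlapped the serum libraries.

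Ryr2, the calcium release channel of heart muscle, had 3.98, 7.36 and 4.83 CPM in 2i against 8.01, 9.57 and 9.08 CPM in serum, with transcripts of 14344 bases. All TKO-2i values of Ryr2 lay under the serum values, unlike those of Dst.

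Nfat5, the transcription factor of the osmotic stress response, had 27.5, 55.3 and 34.5 CPM in 2i against 48.8, 60.2 and 56.5 CPM in serum, with transcripts of 12608 bases and 42.3% GC. Zbtb37, a BTB-domain zinc finger protein, had 14.3, 26.6 and 19.8 CPM in 2i against 15.5, 19.9 and 18.7 CPM in serum, with transcripts of 17654 bases and 41.8% GC. In both genes replicate 2 was the highest and replicate 1 the lowest library of each condition.

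Zinc finger genes made up 9 of the 35 members (25.7%) and 353 of the 10433 genes (3.38%) by symbol. Among the 9 are Zscan4c, Zscan4e and Zscan4-ps2, which met the 5 CPM floor only through serum. They had at most 5 counts in any TKO-2i library. Finger repeats can be alike between genes, which leaves fewer reads that belong to a single gene. This differed between the members, with 1.98% of 31-base words found in other genes for Zbtb37, 10.7% for Zfp820 and 93.7% for Zfp986. Zbed6 (ENSMUSG00000102049; chromosome 1, 133655879 to 133660885, minus strand), a transposon-derived repressor of growth genes, had the largest ratio of the members expressed in both conditions, 2.65 (95% counting interval 2.35 to 2.99). Zbed6 had 8.85, 23.0 and 8.69 CPM in 2i against 12.0, 13.5 and 10.7 CPM in serum. TKO-2i replicates 1 and 3 were nearly equal and both lay under all serum libraries, and replicate 2 lay above them. Zbed6 lies inside exons of Zc3h11a and Gm38394 on the same strand, and all of its 31-base words occur in their transcripts or in others. Added to Gm38394 the ratio was 1.73, and added to Zc3h11a it was 1.35.

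Zfp986, a C2H2 zinc finger gene, had 6.31, 14.4 and 6.61 CPM in 2i against 11.9, 15.0 and 12.6 CPM in serum, so that replicate 2 reached the serum range and the others did not. Zfp966 had 10.8, 21.8 and 14.2 CPM in 2i against 17.8, 19.7 and 18.8 CPM in serum. The 2 genes share 93.7% of their 31-base words with other genes and have 38.2% and 37.3% GC. Zfp820, also of the C2H2 class, had 8.03, 15.7 and 10.2 CPM in TKO-2i, all above the 5.86, 6.80 and 6.19 CPM of TKO-serum. Zfp119b had 5.24, 9.52 and 6.34 CPM in 2i against 7.23, 9.27 and 8.57 CPM in serum. With 36.6% and 38.8% GC, Zfp820 and Zfp119b were among the AT-rich members.

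Gm14391, a predicted zinc finger gene near Zfp966 on chromosome 2, had 25.4, 45.9 and 33.2 CPM in 2i against 26.3, 30.8 and 31.5 CPM in serum. Gm15446, a predicted gene of 39.96% GC, had 3.97, 9.49 and 5.36 CPM in 2i against 7.42, 9.24 and 7.49 CPM in serum. Both showed replicate 2 as the highest TKO-2i library and replicate 1 as the lowest. The starts of Gm14391 and Zfp966 lie 724183 bases apart, and no pair of members had starts within 100 kb of each other.

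The other 2 members expressed in both conditions overlapped further gene models on the same strand. Nnt (ENSMUSG00000025453; chromosome 13, 119335448 to 119408997, minus strand), the transhydrogenase of the inner mitochondrial membrane that makes NADPH, had 5.52, 11.2 and 5.68 CPM in 2i against 20.7, 24.8 and 23.9 CPM in serum. The annotation holds another gene model of the same name over the same exons, which had 18.4, 15.2 and 18.2 CPM in 2i against 14.3, 14.7 and 13.9 CPM in serum. The models moved in opposite directions in replicate 2, and their sum had 23.9, 26.4 and 23.9 CPM in TKO-2i, a ratio of 1.103. The main transcript of the member, of 3464 bases, was at 0 CPM in TKO-2i replicate 1, 7.75 CPM in replicate 2 and 3.16 CPM in replicate 3. Gm28036, a predicted gene that runs over exons of Cpne1, Nfs1 and Rbm12, had 22.6, 44.4 and 30.8 CPM in 2i against 27.8, 31.9 and 28.2 CPM in serum. Added to Cpne1, a calcium-dependent membrane-binding protein, its ratio fell to 1.15, and added to Nfs1 or Rbm12 it was 1.25 or 1.27.

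Transcript length and base composition differed between the classes of members. The read-weighted transcript length was above 10 kb in 8 of the 35 members (22.9%) and in 1.38% of the 10433 genes, but the median was 2939 bases for the members and 2884 bases for the genes. For the 18 members low in 2i the median was 2133 bases, and for the 15 expressed in both conditions it was 4968 bases, against 2879 bases for the 9788 genes. GC content was under 45% in 22 members (62.9%) and in 21.5% of the genes. Its median was 44.1% over the members, 44.5% over the 18 and 41.9% over the 15, against 50.5% over the 10433 genes. Of the 15 members expressed in both conditions, 13 were long or under 45% GC, against 22.8% of the 9788 genes, and the exceptions were Nnt and Gm28036. Among the 18, 12 were long or under 45% GC.

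The same 2 properties moved with replicate 2 over all genes. In TKO-2i the ratio of replicate 2 to the mean of replicates 1 and 3 had a median of 0.829 for the 598 genes of up to 1 kb, 1.01 for the 4165 genes of 2 to 4 kb and 1.36 for the 138 genes over 10 kb. In TKO-serum the medians of these classes were 0.919, 1.00 and 1.07. By GC content, the TKO-2i median fell from 1.25 for 412 genes under 40% to 0.904 for 421 genes over 60%, and the TKO-serum median from 1.13 to 0.929. For the 50 genes that were both over 10 kb and under 45% GC, it was 1.49 in TKO-2i and 1.12 in TKO-serum. Across the 9788 genes, Spearman's rho between length and this ratio was 0.69 in TKO-2i and 0.49 in TKO-serum, and between GC content and the ratio -0.57 and -0.68. These correlations describe genes of the same libraries, which share their length and GC content in both conditions and are not independent replicates. The ratios of the 2 conditions had a rho of 0.73 with each other.

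**Figure D2:**
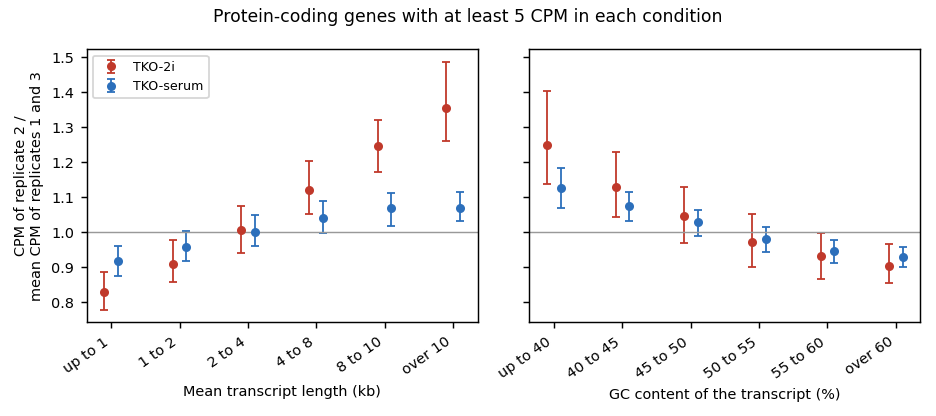
Ratio of the CPM of replicate 2 to the mean CPM of replicates 1 and 3, in classes of transcript length (left, in kb) and GC content (right, in %), over protein-coding genes with at least 5 CPM in each condition. Points are medians over genes and bars reach from the lower to the upper quartile, in TKO-2i (red) and TKO-serum (blue). From the shortest to the longest class the median goes from 0.829 to 1.36 in TKO-2i and from 0.919 to 1.07 in TKO-serum.

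Transcripts of a single gene were also compared. Of 743 genes with a pair of major transcripts at least 2-fold apart in length, the longer had the larger replicate 2 ratio in TKO-2i in 493 (66.4%), and the medians were 1.05 for the longer and 0.955 for the shorter. In TKO-serum the longer had the larger ratio in 467 of them (62.9%), with medians of 1.03 and 0.976. Dst was among these genes. Its 23279-base transcript had 37.6, 110.4 and 75.2 CPM in 2i, and its 5729-base transcript had 46.2, 63.9 and 66.7 CPM. Replicate 2 was thus 1.96 times the mean of the others for the long form and 1.13 times for the short form. Other long forms of Dst, of 23201 and 16340 bases, had 1.88 and 1.46. In TKO-serum these 3 long forms had 0.864, 1.03 and 1.03 and the short form 1.01. For Gm14391 the TKO-2i values were 1.67 for the transcript of 5536 bases and 1.23 for that of 1854 bases, and in TKO-serum they were 1.07 and 2.65. The forms of both genes followed length in TKO-2i and did not do so throughout in TKO-serum. Other members went both ways in TKO-2i. Ryr2 had 1.75 for its transcript of 16813 bases and 0.966 for that of 4924 bases. Gm2974 had 1.23 for its transcript of 1990 bases and 2.16 for that of 447 bases. Counts of transcripts of a gene are estimates, since most reads fit several of them.

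A trend of each library on length and GC content was then removed within its condition, an alternative chosen after seeing the data. The trend held 54.97% of the variance of the deviations of TKO-2i replicate 2 over genes and 51.8% of those of TKO-serum replicate 2. After its removal the median ratio of highest to lowest TKO-2i CPM over the 9788 genes went from 1.13 to 1.08. The rule then took 25 genes, 20 of them members, with neither T nor Mtln. Of the 18 members low in 2i, 11 of the 13 with a ratio met it, and the 5 with a library at 0 counts met it whatever the trend. Of the 15 members expressed in both conditions, 4 met it, namely Zbed6, Gm15446, Zfp986 and Nnt. Their ratios were 2.22, 2.06, 2.00 and 1.95. The counting interval of the measured ratio lay above 1.3 in all 15, but in only 10 of the 18. Removing the trend leaves counting error in place, so these classes are not compared. Of the 15, the 6 over 10 kb came to 1.37 or less, with Zbtb37 going from 1.86 to 1.23, Tmem245 from 1.92 to 1.29 and Dst from 1.899 to 1.37. Length and GC content are given beside these ratios, and their part in the result was not tested. Which sequencing pool held which library is not in the labels.

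**Figure D3:**
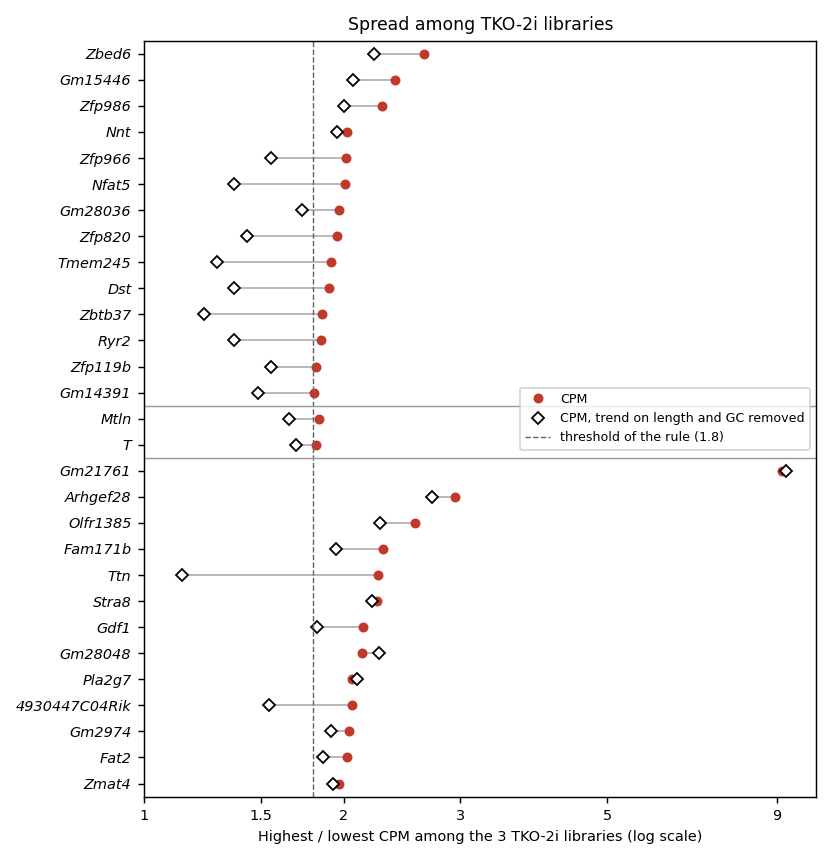
Ratio of highest to lowest CPM among the 3 TKO-2i libraries, on a log axis, as measured (red circles) and after the trend of each library on transcript length and GC content was removed (open diamonds), for 29 members with counts in every TKO-2i library. Blocks are those of the plot of CPM by library, and the dashed line is the threshold of 1.8. In the upper block 4 of 14 diamonds lie above 1.8.

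T and Mtln were the members with at least 5 CPM in TKO-2i alone, and replicate 2 was their lowest TKO-2i library. T (ENSMUSG00000062327; chromosome 17, 8434423 to 8442496, plus strand) encodes Brachyury, the T-box factor of the primitive streak and a direct target of Wnt signalling. T had 11.8, 10.1 and 18.4 CPM in 2i against 0.340, 0.270 and 0.268 CPM in serum. Replicate 3 held the highest level, 1.81 times that of replicate 2 (95% counting interval 1.61 to 2.04), on 806 against 447 counts. The TKO-serum libraries had 13, 14 and 12 counts. Of 14 Wnt targets tested, 10 were higher in TKO-2i and none was lower, beside 31.9% and 30.6% of the 18177 genes tested (edgeR, adjusted p under 0.05). The 9 Wnt targets with at least 5 CPM had a median TKO-2i ratio of 1.24, against 1.07 in TKO-serum.

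Mtln, which encodes mitoregulin, a micropeptide of the inner mitochondrial membrane, had 9.22, 5.02 and 6.56 CPM in 2i against 4.65, 4.43 and 5.20 CPM in serum. Its transcript of 800 bases was among the shortest of the members. Replicate 1 was highest and replicate 2 lowest, the order of the medians of genes up to 1 kb. With the trend on length and GC content removed, the ratio was 1.65 for Mtln and 1.69 for T, both under 1.8.

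The promoter of T is shown because T is a known Wnt target, and that of Stra8 because its best-known inducer is retinoic acid. RefSeq promoters of 300 bases on GRCm38.p6 were matched for both genes. Capitals mark CTTTG, the core of the sequence bound by TCF factors, or its reverse CAAAG in the promoter of T, at chr17:8434173-8434472 on the plus strand. They mark AGGTCA, the half-site of retinoic acid receptors, or its reverse TGACCT in the promoter of Stra8, at chr6:34920698-34920997 on the plus strand. CTTTG or CAAAG occurred 3 times in the promoter of T and at least once in 53.9% of 32851 promoters. AGGTCA or TGACCT occurred 2 times in the promoter of Stra8 and in 16.3% of promoters. The RefSeq start of Stra8 lies downstream of its GENCODE start. A match is a description, not a site or a cause.
T promoter: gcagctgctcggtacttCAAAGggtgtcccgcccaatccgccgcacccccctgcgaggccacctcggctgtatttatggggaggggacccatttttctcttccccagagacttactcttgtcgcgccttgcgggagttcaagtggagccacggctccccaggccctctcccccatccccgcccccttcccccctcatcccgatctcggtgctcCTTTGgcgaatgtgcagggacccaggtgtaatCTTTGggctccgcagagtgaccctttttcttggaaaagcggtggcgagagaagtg
Stra8 promoter: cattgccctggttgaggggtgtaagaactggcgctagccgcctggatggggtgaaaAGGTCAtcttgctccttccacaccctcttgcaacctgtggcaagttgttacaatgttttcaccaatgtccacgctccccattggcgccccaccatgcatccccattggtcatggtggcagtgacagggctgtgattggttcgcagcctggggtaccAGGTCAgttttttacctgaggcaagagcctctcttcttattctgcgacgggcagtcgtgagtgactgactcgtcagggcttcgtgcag

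Zscan4 genes, which mark the 2-cell-like state, were 3 of the 18 members low in 2i. Zscan4c (ENSMUSG00000054272; chromosome 7, 11005745 to 11010547, plus strand), whose protein protects telomeres in these rare cells, had 16.9, 16.6 and 15.2 CPM in TKO-serum. In TKO-2i it had 5, 0 and 4 counts. Zscan4e had 14.8, 16.6 and 15.2 CPM in TKO-serum and 0, 4 and 1 counts in TKO-2i. Zscan4-ps2 had 11.3, 12.5 and 11.8 CPM in TKO-serum and 0, 5 and 5 counts in TKO-2i. A ratio between TKO-2i libraries at such counts rests on a few reads. Its counting interval reached down to 0.664, 0.691 and 0.965 for the 3 genes and had no upper end. These intervals describe values that the rule used, and the source of the spread was not tested. They share 91.5% to 93.7% of their 31-base words with other genes, so that reads of the family could be divided between them. The 15 genes of the 2-cell-like list that were matched had 4.24, 3.58 and 3.16 CPM in all in 2i against 111, 119 and 122 CPM in serum, of which Zscan4f, the most abundant, held 20.9, 23.7 and 24.2 CPM.

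Stra8 (ENSMUSG00000029848; chromosome 6, 34920163 to 34939344, plus strand), the retinoic acid-induced gene that opens meiosis, had 6.34, 5.32 and 2.82 CPM in 2i against 8.15, 7.09 and 8.05 CPM in serum. Replicate 3 held the lowest level, on 124 counts against 293 in replicate 1, and the ratio was 2.24 (95% counting interval 1.81 to 2.79). It stayed at 2.20 with the trend on length and GC content removed. Stra8 met the rule with TKO-2i replicate 1 or 2 left out and did not meet it without replicate 3, its lowest library. 4930447C04Rik encodes a part of the synaptonemal complex, the structure that joins chromosomes in meiosis. It had 2.49, 5.12 and 3.92 CPM in 2i against 20.1, 24.8 and 23.2 CPM in serum, with the lowest GC content of all members, 34.5%. Its ratio went from 2.06 to 1.54 with the trend removed and no longer met the rule. Neither gene is in the germ line list, which held 0 members.

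Ttn, which encodes titin, the giant spring of the sarcomere, had 2.66, 5.998 and 4.17 CPM in 2i against 19.4, 21.1 and 24.2 CPM in serum. Its transcripts of 82548 bases were the longest of the members, and its ratio went from 2.25 to 1.14 with the trend removed, a fit made on few genes of such length. Fat2, a giant atypical cadherin, had 1.19, 1.38 and 0.683 CPM in 2i against 14.8, 15.5 and 15.8 CPM in serum. Its transcripts of 14450 bases are also long. On 55, 61 and 30 counts its ratio was 2.02 (95% counting interval 1.28 to 3.24). With the trend removed it was 1.86, within that interval, and met the rule. Arhgef28, an exchange factor for RhoA, had 0.238, 0.702 and 0.364 CPM in TKO-2i, on 11, 31 and 16 counts, and 9.41, 10.2 and 9.99 CPM in TKO-serum. In Ttn and Arhgef28 replicate 2 was again the highest TKO-2i library and replicate 1 the lowest, and in Fat2 replicate 3 was the lowest.

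Gdf1, a TGF-β family ligand that works with Nodal in left-right patterning, had 0.828, 0.628 and 1.34 CPM in 2i against 9.53, 8.72 and 9.29 CPM in serum. It shares a transcript region with Cers1, a ceramide synthase, and the sum of both genes had a TKO-2i ratio of 1.09. Pla2g7, a secreted phospholipase that inactivates platelet-activating factor, had 0.498, 0.656 and 0.319 CPM in 2i against 9.77, 10.9 and 10.4 CPM in serum. With 14 counts in its lowest library, its counting interval was 1.05 to 4.21. Spink1, a trypsin inhibitor, had 0, 0 and 1 counts in 2i against 19.2, 16.9 and 15.5 CPM in serum. Its place in the rule rested on the 1 count.

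Fam171b, a membrane protein, had 1.51, 2.56 and 1.12 CPM in 2i against 9.17, 10.6 and 9.15 CPM in serum. Olfr1385, an olfactory receptor gene read mainly as a noncoding transcript of 3155 bases, had 0.673, 1.73 and 1.23 CPM in 2i against 8.68, 9.55 and 9.97 CPM in serum. Zmat4, a zinc finger gene of the matrin type, had 0.498, 0.905 and 0.980 CPM in 2i against 16.2, 16.98 and 18.2 CPM in serum. All 3 lay far below every serum library in each TKO-2i library.

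The last members were predicted genes. Gm28048, which runs over exons of B3gnt2 and Commd1, had 2.11, 2.15 and 4.501 CPM in TKO-2i, with replicate 3 highest, and 7.33, 9.04 and 8.27 CPM in TKO-serum. Added to B3gnt2, a glycosyltransferase, the TKO-2i ratio was 1.03, and added to Commd1, a copper and protein turnover factor, it was 1.25. Gm2974 had 1.28, 2.60 and 2.16 CPM in 2i against 10.4, 12.0 and 12.2 CPM in serum. Gm6763 had 0, 0 and 3 counts in 2i against 13.6, 12.0 and 14.3 CPM in serum, and its exons overlap those of Gm21293. Gm21761 had 1, 4 and 9 counts in 2i against 11.5, 13.9 and 12.7 CPM in serum. Between 87.7% and 100% of the 31-base words of the latter 3 genes occur in other genes as well.

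Sequence shared with other genes and overlapping models were counted over the members. More than 50% of the 31-base words occurred in other genes for 12 of 35 members (34.3%), against 2.96% of the 10433 genes, and 7 members had a predicted-gene symbol, against 0.968%. Exons of 6 members (17.1%) overlapped another gene on the same strand, against 8.94% of genes. With genes that overlap on the same strand summed, 30 units met the rule and 29 of the 35 members were in them.

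Between the conditions, 62.5% of the 18177 genes tested by edgeR's quasi-likelihood test had an adjusted p under 0.05, with 31.9% higher and 30.6% lower in TKO-2i. All 35 members passed the filter of the test. The 18 and 2 members that met the 5 CPM floor through a single condition carry a difference by choice, so no calls are counted over them here. Of the 15 members expressed in both conditions, 2 were higher and 2 lower, beside 64.6% of the 9788 genes called, 42.4% higher and 22.2% lower. The TKO-2i and TKO-serum libraries did not overlap for 3 of the 15, beside 68.9% of the 9788 genes. The spread by which the members were chosen enters the error of this test and widens their ranges, so nothing is read from these counts.

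Zfp820 was higher in TKO-2i, with a log2 fold change of 0.90 (SE, the standard error, 0.21; adjusted p = 0.00586 by edgeR). Tmem245 was also higher, with a log2 fold change of 0.65 (SE 0.20, adjusted p = 0.0188). Nnt was lower, at -1.58 (SE 0.23, adjusted p = 0.000432), and so was Ryr2, at -0.67 (SE 0.19, adjusted p = 0.0144). Tmem245 and Ryr2 were each not called in 3 of 15 alternatives of the test, whereas Zfp820 and Nnt were called in all 15. The sum of both Nnt models had 34.96, 39.5 and 37.8 CPM in TKO-serum, above the TKO-2i values given for it. Without TKO-2i replicate 2, 8 of the 15 were lower and without TKO-2i replicate 1, 6 were higher, so that the number of calls depended on single libraries.

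Dst had a log2 fold change of 0.18 (SE 0.18, adjusted p = 0.418), and Nfat5 one of -0.45 (SE 0.21, adjusted p = 0.0990). Zbed6 had 0.21 (SE 0.34, adjusted p = 0.619), the widest error of the members expressed in both conditions. With the replicate number as a block, Nfat5 was lower (adjusted p = 0.00408), as was Zfp986 (adjusted p = 0.0129). Gm14391 was higher in that fit (adjusted p = 0.0390), so that the calls of these 3 genes depended on how the replicates were treated.

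Other gene programmes are described by the median TKO-2i ratio of their genes with at least 5 CPM, beside 1.13 over the 10433 genes. For the 15 naive pluripotency genes it was 1.104, against 1.07 in TKO-serum. The 11 formative and primed epiblast genes had a median of 1.18 in TKO-2i, and the highest, Lef1, a partner of β-catenin, reached 1.74. Immediate-early and ERK feedback genes had a median of 1.15, with a highest value of 1.48 for Egr1, and cholesterol and fatty acid synthesis genes one of 1.09. The amino acid stress response had a median of 1.08, the unfolded protein and heat shock genes 1.12, hypoxia and glycolysis 1.17 and p53 targets 1.15. Cell cycle genes had medians of 1.18 for G2 and M phase and 1.08 for G1 and S phase. The medians were 1.19 for iron and metal response genes, 1.18 for germ line genes and 1.13 for interferon response genes. Values thus lay on both sides of that of all genes.

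Mitochondrially encoded genes had the largest median of the lists. The 13 of them had a median TKO-2i ratio of 1.65 and a TKO-serum ratio of 1.25, and the highest TKO-2i ratio was 5.05, for mt-Nd3. Together they had 14165, 22503 and 16168 CPM in 2i against 15137, 17685 and 16334 CPM in serum, so that replicate 2 was again highest in both conditions. The most abundant, mt-Co1, a subunit of cytochrome c oxidase, had 5108, 9206 and 6145 CPM in TKO-2i.

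Markers of other cell types are given as sums over each list and as median TKO-2i ratios of the genes with at least 5 CPM. The 14 primitive endoderm genes summed to 547, 546 and 558 CPM in 2i against 1003, 1001 and 997 CPM in serum, led by Sparc, and 8 of them had a median ratio of 1.14 and a highest of 1.74, for Cubn. The 12 trophoblast genes summed to 224, 197 and 217 CPM in 2i against 117, 112 and 111 CPM in serum, led by Krt8, a keratin, and 5 of them had a median ratio of 1.11. Of the 12, 5 were called higher and 6 lower in TKO-2i, beside 31.9% and 30.6% of the 18177 genes. The 12 neural genes summed to 273, 249 and 263 CPM in 2i against 558, 521 and 541 CPM in serum, led by Stmn2, and 6 of them had a median ratio of 1.17 and a highest of 1.53, for Pax6. Fibroblast genes, which would mark feeder cells, summed to 24.9, 22.9 and 20.5 CPM in 2i against 35.4, 35.8 and 33.7 CPM in serum, led by Fbn1, and the 2 of them with at least 5 CPM had a median ratio of 1.28. No gene of these lists was at 0 in all 6 libraries, and 5 of the 12 fibroblast genes were under 1 CPM in each.

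Near the thresholds, members and other genes differed little. Gm14391, T and Zfp119b were the members closest to the TKO-2i threshold, with ratios of 1.81, 1.81 and 1.82, and mt-Nd4, Olfr1388 and Aass, at 1.79, 1.78 and 1.78, just missed it. Zbtb37, Zfp119b and T had TKO-serum ratios of 1.29, 1.28 and 1.27, and Ccdc18, Gm21897 and Ubn2 exceeded the limit with 1.31, 1.31 and 1.32. Gdf1, Arhgef28 and Olfr1385 had mean levels of 5.06, 5.15 and 5.305 CPM, and Cyyr1, Ryr3 and Sema3e fell short with 4.95, 4.83 and 4.56 CPM. Ubn2, a chromatin factor, had 63.1, 119.9 and 78.6 CPM in 2i against 56.8, 74.7 and 68.7 CPM in serum, the same order of replicates as Dst in TKO-2i.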

How the data were processed

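The authors deposited estimated counts and TPM of each transcript for every library, with transcript lengths in bases. The columns are those that salmon writes; its version and index are not given in the sources used here. The methods of the study name TopHat, RPKM and DESeq for RNA-seq, so how the estimates were made is uncertain. Estimated counts deposited by the authors are not normalized and are divided between transcripts that share reads. TPM deposited by the authors are scaled by effective length and to a fixed sum.

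GENCODE M21 on GRCm38 (mm10) gave the gene of each transcript; 136100 of 136288 were matched, and between 0.0473% and 0.0643% of counts were left out. Counts were summed per gene and scaled by the library total to CPM. Rounded sums were tested in edgeR 4.0.16 (R 4.3.3) with filterByExpr, TMM, the quasi-likelihood test with condition as the factor, and Benjamini-Hochberg adjustment. Standard errors are the fold change over the square root of F. Overlaps came from bedtools 2.31.1, and Python 3.11.15 did the rest. The trend was a cubic in log2 length and in GC content.

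The members and lists were chosen with earlier results of these data known. Named were the 20 members with the largest TKO-2i ratio, members in a list, the 5 largest rises and falls, the 3 genes on either side of each threshold, the methyltransferases and cell markers. The other members, namely Zfp966, Nfat5, Gm28036, Fat2, Zmat4, Dst and Ryr2, genes that overlap members, and Gm14288 and Gm45234 were named after their values were seen. Alternatives covered scaling, unit, thresholds, filters, DESeq2 1.42.0, limma 3.58.1, a replicate block and each library left out. Intervals cover counting error only. 1 further member is counted among the 35 and is not reported here.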

Additional observations from a re-analysis of the deposited data

How the results depend on the processing

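The number of genes that met the rule was 35. It was 13 with a mean of at least 10 CPM, 94 with at least 2 CPM, 116 with a TKO-2i ratio of at least 1.6, 23 with at least 2, and 20 with a TKO-serum ratio of at most 1.2. It was 15 with at least 5 CPM in each condition, and 25, of which 20 were members, with the trend on length and GC content removed, and 30 with no TKO-2i library at 0 counts, all chosen after seeing the data. With a library left out it ranged from 9, without TKO-2i replicate 2, to 67, without TKO-serum replicate 1. Fewer libraries loosen the serum limit and tighten the 2i limit by construction. With TMM library sizes 31 members were shared, with DESeq2 size factors 27, and with TPM 13 of 48.

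The count of members higher in TKO-2i includes T and Mtln by choice, and nothing is read from it. In the main fit it was 4, beside 31.9% of the 18177 genes tested. It was 2 with limma on log2(TPM + 1) or log2(TPM + 0.1), and between 2 and 7 with a library left out. Among the 15 members expressed in both conditions, 1 was higher with either limma setting and between 1 and 6 with a library left out, and between 1 and 8 were lower. Mtln was not called in 8 of 15 alternatives, and Stra8 (adjusted p = 0.0506 by edgeR) was called in 10 of 15. Both met the 5 CPM floor through a single condition, so nothing is read from their calls. The cause was not tested.

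With the replicate number as a block, 4 of the 15 were lower and 3 higher, against 2 and 2. The deviations of libraries with the same number had r of 0.24, 0.33 and 0.01 over 18177 tested genes for replicates 1, 2 and 3, and of 0.51, 0.74 and 0.11 over the 10856 genes with a mean of at least 5 CPM. The labels do not say what libraries of one number share, and the number was treated as a number only.

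Of 504 fold changes of 34 members under the 15 alternatives of the contrast, 456 kept their sign and their side of the threshold. Members that met the 5 CPM floor through a single condition are among these and carry a difference by choice. The count is therefore no measure of stability. With the sign kept, 14 lost and 26 gained a call. Another 8 changed sign, of which only Zbed6 without TKO-2i replicate 2 was called, lower in TKO-2i (adjusted p = 0.0068). With a library left out, the log2 fold change ranged from -0.39 to 0.43 for Zbed6, -0.0643 to 0.39 for Gm28036, -0.0676 to 0.36 for Dst and -0.0116 to 0.39 for Zbtb37. The lowest value came without TKO-2i replicate 2 in each. With limma on log2(TPM + 1) and log2(TPM + 0.1) it was -0.00779 and -0.0141 for Gm28036 and -0.0893 and -0.0951 for Gm14391. Gm15446, at -0.31 in the main fit (adjusted p = 0.340 by edgeR), was called lower in 4 of 15 alternatives. Its log2 fold change there was -1.25 and -1.36 with these limma settings and -1.15 with counts from length-scaled TPM. Without TKO-2i replicate 2 it was -0.72. Members with a few counts in TKO-2i are limited by depth, and 29 of 35 had at least 10 counts in every library.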
